A study of Mus musculus with 6 samples.

Results

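Surrogate light chain, recombination and early B lineage genes were measured by RNA-seq in cells sorted from mouse bone marrow as regulatory T cells (Tregs), Foxp3-dependent suppressor cells of the CD4 lineage. The 9 genes, Igll1, Vpreb1, Vpreb3, Rag1, Rag2, Dntt, Ebf1, Pax5 and Blnk, were matched by symbol, and all 9 were among the 15483 genes listed in every library. There were 3 libraries from wild-type (WT) mice at 3 months after irradiation (IR) and 3 from WT control mice. No radiation dose, age or sex of the mice is given, nor whether a library is 1 animal or a pool. The series title calls these cells prematurely aged, and the gate took Foxp3+ cells that were CD3+ and CD4+ and lacked NK1.1, with no B lineage marker among its terms.

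Precursor B cells arise in the bone marrow, where they assemble the antibody genes before they carry a complete B cell receptor. RAG1 and RAG2 together cut the DNA at the V, D and J segments, and terminal transferase, the product of Dntt, adds bases at the joints. A new mu heavy chain is first paired with a surrogate light chain, made of the Vpreb1 and Igll1 proteins, in the pre-B cell receptor. The factors EBF1 and PAX5 set and hold the B cell fate, and the adaptor BLNK carries the receptor signal inside the cell. Recombination genes also act in immature thymocytes, and transcripts of some of these genes are known in plasmacytoid dendritic cells.

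The libraries held few transcripts of these genes and many of granulocytes. The sum of the 9 genes was 9.95 to 13.2 FPKM (fragments per kilobase of transcript after scaling for sequencing depth) in irradiated libraries and 62.3 to 67.0 FPKM in control libraries. Foxp3 stood at 12.6 ± 0.795 FPKM (SD, n = 3) in irradiated and 22.6 ± 1.93 FPKM in control libraries, and the neutrophil gene S100a8 at 39026 ± 427 and 25283 ± 1249 FPKM. A list of 14 neutrophil genes held 100901 to 103839 of 480854 to 485365 FPKM in irradiated libraries. In control libraries it held 69113 to 74266 of 451444 to 470375 FPKM. The values are those of the whole sorted sample and cannot be read as levels in Tregs. The values carry no read counts. In low values of genes with 1 annotated transcript, FPKM times length clustered at multiples of a step per library, with 16.3% to 25.1% of values within 0.03 of a multiple, where an even spread gives 3.35% to 4.25%. Each step was chosen to give the largest such share, so the contrast with an even spread at a fixed step does not test it. Read as 1 fragment, that step corresponds to 14.1 to 16.2 M (mega, 1e6) fragments in irradiated and 17.2 to 17.9 M in control libraries. It was used to state how many fragments a low value stands for, as an estimate that rests on annotated transcript length and covers counting error only.

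Most precursor genes were several-fold lower after irradiation, and Igll1 was nearly at 0. In 8 of the 9 genes all 3 irradiated values lay below all 3 control values, as they did in 16.4% of all listed genes and 20.1% of those with a mean of 1 FPKM or more, and Rag2 was the exception. In the limma fit over the 10666 genes that reached a mean of 1 FPKM, 7 of the 9 could be tested and 7 were lower, against 10.3% of all tested genes called lower, 6.29% called higher and 16.6% called either way. Each of the 7 had a log2 change below -1, as 1.61% of tested genes did while also passing the test. Of these, 4 had an irradiated mean under 1 FPKM and passed the filter through the control libraries, so that count is a description and not evidence in itself. In a fit over all 15483 listed genes, with no filter added to the deposited list, 8 of the 9 were lower against 5.88% of genes lower, 3.26% higher and 9.14% either way. How the listed genes were chosen is not given. Log2 changes are irradiated minus control on log2(FPKM + 1), which understates the change of low genes, and the median over tested genes was -0.02. In these sorted bulk samples, fewer cells of a type and less RNA per cell cannot be told apart.

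**Figure D1:**
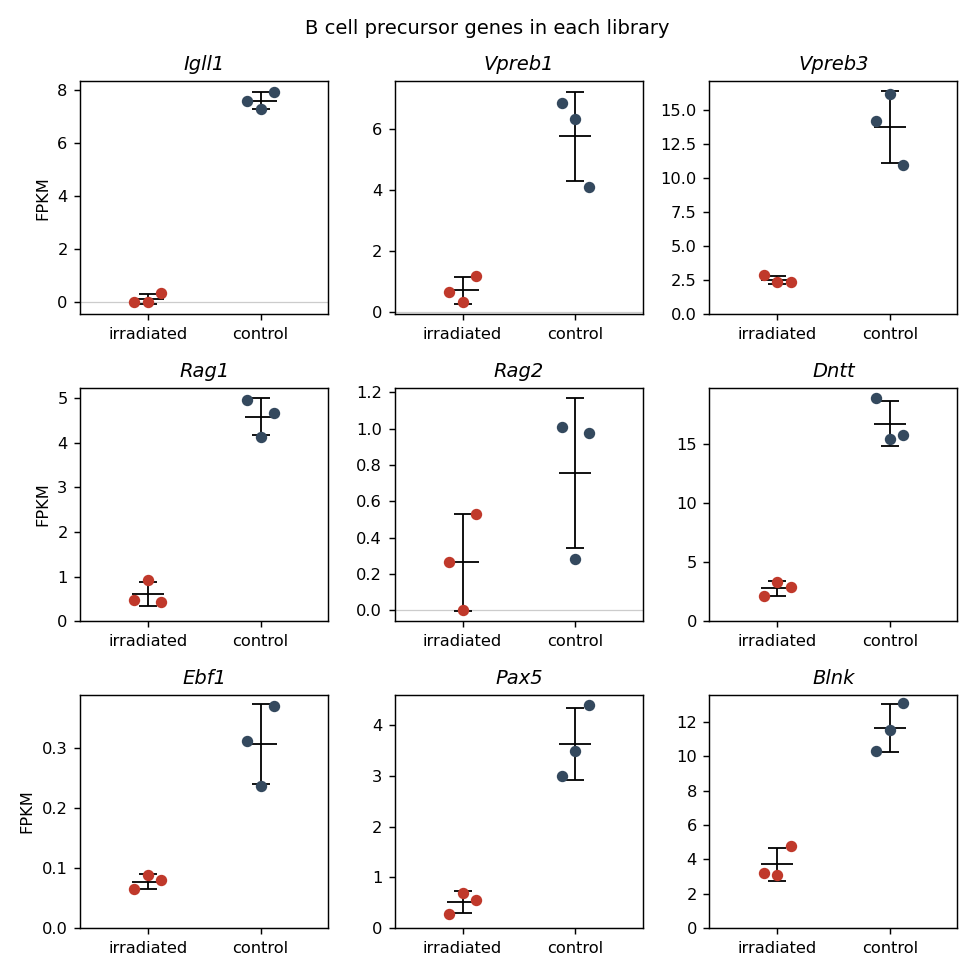
FPKM of each of the 9 genes in the 3 irradiated (red) and 3 control (blue) libraries, with points per library, bars at the mean and error bars of 1 SD, each panel on its own linear axis. Groups are apart in 8 panels, and in Rag2 the highest irradiated value, 0.532, lies above the lowest control value, 0.282.

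The promoter windows of 4 of these genes are shown because the surrogate light chain genes are textbook targets of EBF1 and because octamer letters occur in some B cell promoters. The windows, from RefSeq on GRCm38.p6, run from 250 bases before to 50 after the annotated start. In the first pair, Igll1 (chr16:16863936-16864235, minus strand) and Vpreb1 (chr16:16869206-16869505, minus strand), capitals mark CCCNNGG on either strand, the core letters of the EBF motif. In the second pair, Vpreb3 (chr10:75948050-75948349, plus strand) and Blnk (chr19:40994172-40994471, minus strand), capitals mark TGCAAAT on either strand, the octamer core.
Igll1: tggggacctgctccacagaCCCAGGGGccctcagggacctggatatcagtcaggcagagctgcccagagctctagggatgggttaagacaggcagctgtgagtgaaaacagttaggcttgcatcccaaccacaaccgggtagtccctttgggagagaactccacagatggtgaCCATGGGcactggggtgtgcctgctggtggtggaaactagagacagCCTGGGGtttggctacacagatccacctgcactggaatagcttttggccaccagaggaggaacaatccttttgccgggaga
Vpreb1: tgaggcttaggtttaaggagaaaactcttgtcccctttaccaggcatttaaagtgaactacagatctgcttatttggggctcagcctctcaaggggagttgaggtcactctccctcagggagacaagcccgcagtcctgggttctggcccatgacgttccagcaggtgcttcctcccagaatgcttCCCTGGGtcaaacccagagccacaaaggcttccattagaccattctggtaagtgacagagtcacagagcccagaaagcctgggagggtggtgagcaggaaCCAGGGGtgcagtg
Vpreb3: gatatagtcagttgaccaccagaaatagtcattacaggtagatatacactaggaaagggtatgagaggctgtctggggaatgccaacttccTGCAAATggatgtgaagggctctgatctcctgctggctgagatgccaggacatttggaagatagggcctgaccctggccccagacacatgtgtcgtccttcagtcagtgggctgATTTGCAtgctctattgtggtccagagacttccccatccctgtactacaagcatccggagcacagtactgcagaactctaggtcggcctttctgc
Blnk: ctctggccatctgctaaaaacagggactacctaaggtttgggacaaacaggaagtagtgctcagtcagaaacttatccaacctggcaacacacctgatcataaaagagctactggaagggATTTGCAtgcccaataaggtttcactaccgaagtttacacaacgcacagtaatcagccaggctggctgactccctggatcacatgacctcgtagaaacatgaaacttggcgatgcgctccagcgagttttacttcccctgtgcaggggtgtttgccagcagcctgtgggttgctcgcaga
The EBF core matched 4 times in the Igll1 window, in 3 stretches because a pair of matches overlap, and 2 times in that of Vpreb1. It was present in windows of 4 of the 9 genes and in 50.7% of all 32851 promoter windows. The octamer core was present in 2 of the 9 genes, with 2 matches in Vpreb3 and 1 in Blnk, and in 4.02% of all windows. CANNTG, the E-box letters, occurred in all 9 genes (72.3% of windows), GGGAA, the Ikaros core, in 8 (62.7%), and TATAAA in 0 (13.6%). These are counts of letters in a window and say nothing of whether a factor was bound.

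Among the surrogate light chain genes, Igll1 had the largest difference. Igll1, also called lambda5 (chromosome 16, 16860671 to 16863985, minus strand, GENCODE M21 on GRCm38), was listed at 0, 0 and 0.325 FPKM in irradiated replicates 1, 2 and 3. In control replicates 1, 2 and 3 it stood at 7.57, 7.27 and 7.93 FPKM. The irradiated values thus sit at the floor, and the control values lie close together. On its coding transcript of 870 bases the irradiated value above 0 corresponds to about 4 fragments, and the control values to about 115, 109 and 124. A library floor of 3 fragments corresponds to 0.217, 0.213 and 0.244 FPKM in the irradiated libraries. Summed over libraries, about 4 fragments against 347 give 1.31% of control per unit of depth, with a 95% exact interval of 0.355% to 3.39% for counting error only. The log2 change was -2.97 ± 0.16 (SE), with a limma adjusted p of 4.43e-07, the lowest log2 change of the 10666 tested genes.

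Vpreb1, whose protein forms the V-like part of the surrogate light chain, lies 4.4 kb from Igll1 with 0 protein-coding genes between them (chromosome 16, 16868403 to 16870843, minus strand). It stood at 0.652, 0.324 and 1.20 FPKM in irradiated replicates and at 6.84, 6.33 and 4.09 FPKM in control replicates. The groups were apart, and the irradiated values correspond to about 7.94, 4.01 and 12.9 fragments. Its irradiated mean was 12.6% of the control mean, and the log2 change was -1.98 ± 0.22 (limma adjusted p = 9.05e-05). Its paralog Vpreb2, 1109.6 kb away, is listed at 0, 0 and 0 FPKM in irradiated and at 0.302, 0.131 and 0.335 FPKM in control libraries, at or near the floor of 3 fragments, so no fold is given. The coding transcripts of Vpreb1 and Vpreb2 are identical at 97.4% of 759 aligned bases, and 233 of 717 stretches of 50 bases in Vpreb1 also occur in Vpreb2. How the authors' counting split reads between the copies is not given, so the division between them is uncertain. The gene Top3b, a topoisomerase, overlaps the Vpreb1 locus on the other strand and was higher, at 27.0 ± 2.66 FPKM in irradiated and 18.7 ± 2.13 FPKM in control libraries (log2 change 0.51 ± 0.10, limma adjusted p = 0.00522).

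Vpreb3 encodes a related protein of the endoplasmic reticulum that binds mu heavy chains (chromosome 10, 75943057 to 75949657). It stood at 2.88, 2.38 and 2.38 FPKM in irradiated replicates and at 14.1, 16.2 and 11.0 FPKM in control replicates. The irradiated values were tight and well below the lowest control. Its irradiated mean was 18.5% of control, a log2 change of -2.04 ± 0.15 (limma adjusted p = 3.83e-06). An unnamed model on the other strand overlaps it, and the labels do not say whether counting used strand.

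The recombination genes differed in how clearly they separated. Rag1, which holds the cutting site of the recombinase (chromosome 2, 101638282 to 101649501), stood at 0.479, 0.915 and 0.424 FPKM in irradiated and at 4.95, 4.14 and 4.68 FPKM in control replicates. Its irradiated values stayed under 1 FPKM and its control values over 4. The irradiated mean was 13.2% of control, and the log2 change was -1.81 ± 0.16 (limma adjusted p = 2.12e-05). Rag1 has a long transcript of 6608 bases, so these values correspond to about 50.3, 97.7 and 39.5 fragments in irradiated libraries and to 570, 470 and 554 in control libraries.

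Rag2, its partner 5.8 kb away, faces it on the same chromosome (101624718 to 101632529) and was scarce in all libraries. It stood at 0.264, 0 and 0.532 FPKM in irradiated and at 1.01, 0.282 and 0.978 FPKM in control replicates. The groups overlapped, since control replicate 2 lay below irradiated replicate 3. Its mean was under 1 FPKM, and it was not in the filtered fit. A two-sided exact permutation test gave p = 0.2, and in the fit over all listed genes the log2 change was -0.47 ± 0.22 with a limma adjusted p of 0.267. Summed over libraries, about 40 fragments against 137 give 33.2% of control per unit of depth, with a 95% exact interval of 22.8% to 47.6% for counting error only, an interval below equality, while the values spread widely between libraries of each group. B230118H07Rik, on the minus strand, overlaps both Rag genes in the annotation.

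Dntt was the most abundant of the 9 genes in control libraries (chromosome 19, 41029275 to 41059525). It stood at 2.10, 3.34 and 2.90 FPKM in irradiated and at 18.9, 15.5 and 15.8 FPKM in control replicates. No irradiated value came near the control range. The irradiated mean was 16.6% of control, and the log2 change was -2.24 ± 0.14 (limma adjusted p = 1.65e-06). In the order of control means Dntt was followed by Vpreb3 at 13.8 ± 2.63 and Blnk at 11.6 ± 1.40 FPKM, and the control ranges of neighbours in this order overlap. Igll1 at 7.59 ± 0.328, Vpreb1 at 5.75 ± 1.46, Rag1 at 4.59 ± 0.414 and Pax5 at 3.63 ± 0.715 FPKM came next, with Rag2 and Ebf1 under 1 FPKM. Igll1 and Vpreb1 did not overlap in control libraries, while Vpreb1 and Rag1, and Rag1 and Pax5, did. In irradiated libraries Blnk, Dntt and Vpreb3 were the 3 genes with means above 1 FPKM, at 3.70 ± 0.954, 2.78 ± 0.628 and 2.55 ± 0.290 FPKM.

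Of the fate factors, Pax5 passed the filtered fit and Ebf1 did not enter it. Pax5 (chromosome 4, 44524757 to 44710487, minus strand) stood at 0.274, 0.697 and 0.551 FPKM in irradiated and at 2.99, 3.49 and 4.40 FPKM in control replicates. All irradiated values lay under 1 FPKM. The irradiated mean was 14.0% of control, and the log2 change was -1.62 ± 0.18 (limma adjusted p = 8.58e-05). Ebf1 (chromosome 11, 44617317 to 45008091) stood at 0.0645, 0.0876 and 0.0799 FPKM in irradiated and at 0.312, 0.237 and 0.371 FPKM in control replicates. The groups were apart at very low levels, and a permutation test, exact and two-sided, gave p = 0.1, below which 3 against 3 cannot go. On its longest coding transcript the irradiated values correspond to about 6.13, 8.47 and 6.74 fragments and the control values to 32.5, 24.4 and 39.7. In the fit over all listed genes its log2 change was -0.28 ± 0.06 (limma adjusted p = 0.0274), while its irradiated mean was 25.2% of its control mean.

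Blnk, the adaptor downstream of the kinase SYK, lies 34.7 kb from Dntt with 0 protein-coding genes between (chromosome 19, 40928927 to 40994535, minus strand). It stood at 3.23, 3.07 and 4.80 FPKM in irradiated and at 10.3, 11.5 and 13.1 FPKM in control replicates. The groups were apart, with the smallest proportional difference of the 7 tested genes. The irradiated mean was 31.8% of control, and the log2 change was -1.44 ± 0.15 (limma adjusted p = 7.17e-05).

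Genes next to the precursor genes did not share their direction as a rule. Ppm1f, a phosphatase gene 25.6 kb from Vpreb1, was at 12.6 ± 2.24 FPKM in irradiated and 12.1 ± 0.483 FPKM in control libraries (limma adjusted p = 0.869). Traf6, 28.9 kb from Rag1, was at 8.14 ± 0.502 and 9.34 ± 0.495 FPKM (limma adjusted p = 0.278). Within 50 kb of Vpreb3, Derl3, a gene of protein export from the endoplasmic reticulum, was higher (log2 change 1.25 ± 0.14) and Chchd10, which encodes a mitochondrial protein, was lower (-0.73 ± 0.17). Zcchc7 near Pax5 (-0.01 ± 0.12) and Zfp518a near Blnk (0.25 ± 0.15) did not pass.

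Cd79a and Cd79b, transcribed from precursor to mature B cells, were also lower, with higher irradiated proportions than any of the 9 genes. Cd79a, a signalling chain of the B cell receptor, stood at 17.9, 10.8 and 13.4 FPKM in irradiated and at 30.9, 29.5 and 24.7 FPKM in control replicates, so its irradiated mean was 49.5% of control. Cd79b, its partner chain, was at 17.9 ± 2.13 FPKM in irradiated and 35.4 ± 2.65 FPKM in control libraries, or 50.6%. All irradiated values of both genes lay below their control values.

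**Figure D2:**
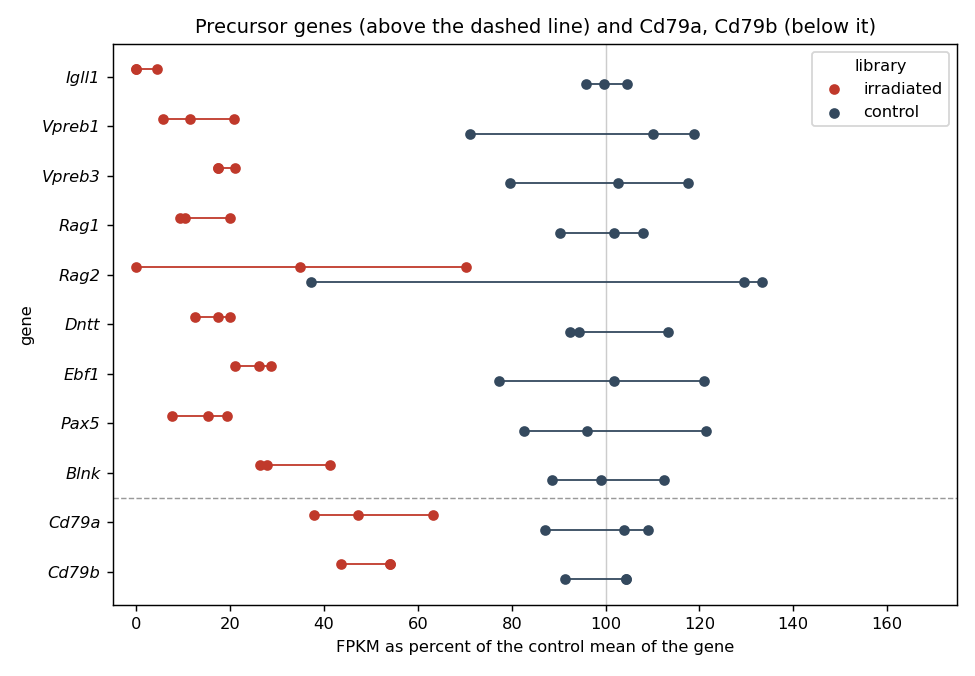
FPKM in each library as a percent of the gene's control mean, for the 9 precursor genes (above the dashed line) and Cd79a and Cd79b (below), with a line from the lowest to the highest of the 3 irradiated (red) or 3 control (blue) libraries. Irradiated means run from 1.43% for Igll1 to 35.1% for Rag2 among the precursor genes, against 49.5% for Cd79a and 50.6% for Cd79b.

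Read against the summed FPKM of Cd79a and Cd79b, most precursor genes were still lower. That sum was 32.0 ± 4.49 FPKM in irradiated and 63.8 ± 3.53 FPKM in control libraries, and the ratio without a pseudocount was chosen after the values were seen. Igll1 stood at 0, 0 and 1.13% of the sum in irradiated and at 11.2%, 11.8% and 12.9% in control replicates. Dntt stood at 8.97% ± 2.92 of the sum in irradiated and 26.2% ± 1.53 in control libraries, and Rag1 at 1.94% ± 0.976 and 7.19% ± 0.457. Groups were apart for 7 of the 9 genes, Ebf1 among them, and the exact test gave p = 0.1 for each. The share of all genes with groups apart on this ratio was not computed, so that count is a description only. Blnk, at 11.9% ± 4.19 and 18.4% ± 3.04 (exact permutation p = 0.2), and Rag2 (exact permutation p = 0.7) overlapped. On the log2(FPKM + 1) scale with the mean of Cd79a and Cd79b subtracted, the differences ran from -2.0 for Igll1 to -0.47 for Blnk among the tested genes, and the groups of Blnk overlapped (exact permutation p = 0.2). On that planned scale Ebf1 was at 0.69 and Rag2 at 0.50, both higher with groups apart, so their direction turns with the pseudocount. These values hold for this pair of genes and were not tested against B lineage genes in general.

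T cell transcripts were lower as well, and the 7 tested precursor genes were also lower on a scale set by them. The summed T cell core genes stood at 265 to 277 FPKM in irradiated and 448 to 465 FPKM in control libraries, 60.0% of control. Dividing each library by its geometric mean over those genes moved the median of all tested genes to 0.59, and 8840 genes were then higher and 225 lower, against 671 higher and 1100 lower on the deposited values. On that scale 7 of the 7 tested precursor genes were lower, against 2.11% of tested genes lower, 82.9% higher and 85% either way, and again 4 of the 7 entered the test through the control libraries. With the mean of the T cell core genes subtracted on the log2(FPKM + 1) scale, the genes outside the filtered fit had differences of 0.38 (Ebf1, groups apart) and 0.19 (Rag2, groups overlapping), signs that the pseudocount set, since the plain ratios to the T cell core sum were 42.0% and 58.8% of control. Igll1 changed by -2.64 ± 0.17, Dntt by -1.66 ± 0.14 and Vpreb1 by -1.54 ± 0.23 (limma adjusted p = 5.21e-07, 2.26e-06 and 9.18e-05). Blnk changed by -0.85 ± 0.15 (limma adjusted p = 0.000367). Cd79b, at -0.29 ± 0.10, was lower on that scale too (limma adjusted p = 0.017), while Cd79a, at -0.33 ± 0.16, did not pass (limma adjusted p = 0.0778).

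**Figure D3:**
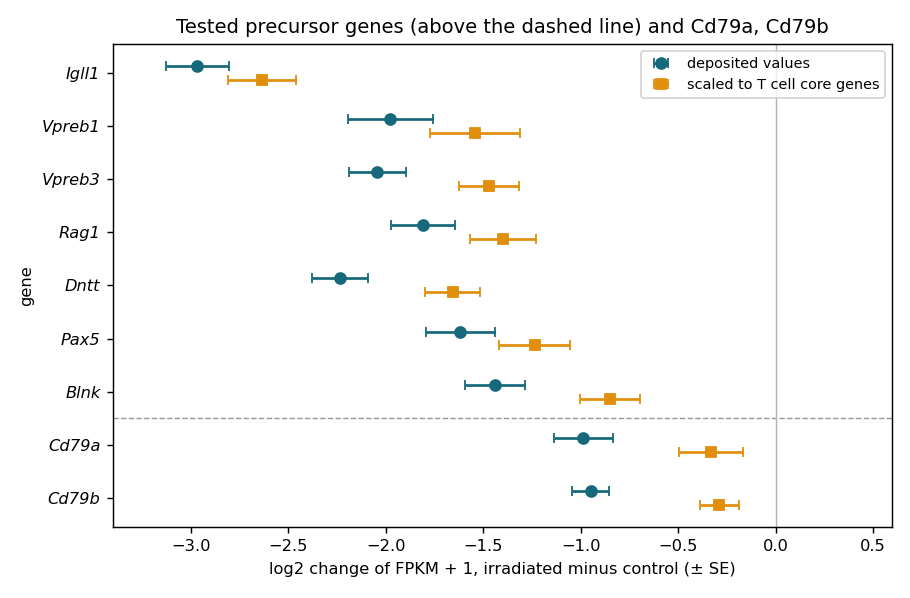
Log2 change of FPKM + 1, irradiated minus control, with its SE, for the 7 tested precursor genes and Cd79a and Cd79b on the deposited values (circles) and with each library scaled to its T cell core genes (squares). The precursor genes stay between -2.64 and -0.85 after scaling, where Cd79a is at -0.33 and Cd79b at -0.29.

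Calls among other genes of the same machinery are set here beside the 10.3% of all tested genes lower and the 6.29% higher. Of 13 tested genes of V(D)J recombination and end joining outside the 9, 1 was higher and 1 lower, with a median log2 change of -0.05. Both counts are near those shares. Hmgb2, a DNA-bending cofactor of the recombinase that dividing cells also make, rose by 0.24 ± 0.04, a call lost in the fit without a trend. Xrcc6, the Ku70 gene, changed by -0.39 ± 0.11 (limma adjusted p = 0.0316), a call lost without irradiated replicate 1 or 2 or control replicate 1 or 2, with the replicate block, without a filter, with quantile normalization and on the T cell core scale. Paxx (0.25 ± 0.11) and Lig4 (-0.26 ± 0.19), both of end joining, did not pass. Of 11 tested genes of the pre-B cell receptor and its signalling, 0 were higher and 4 lower, with a median of -0.20. The 4 were Blk, a SRC-family kinase of B cells (-1.20 ± 0.22), Cd79a (-0.99 ± 0.15), Cd79b (-0.95 ± 0.10) and Pik3ap1, a phosphoinositide 3-kinase adaptor (-0.40 ± 0.07). The kinase genes Syk (-0.20 ± 0.07) and Btk (0.06 ± 0.08) and the phospholipase gene Plcg2 (0.05 ± 0.06) were among those that did not pass. Scaled to the T cell core genes, 7 genes of the receptor list were higher and 2 lower, and 10 of the recombination list higher and 0 lower, where 82.9% of all tested genes were higher and 2.11% lower.

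Of 20 other transcription factors of lymphoid and B cell commitment, 2 were higher and 11 lower, with a median of -0.45. The shares over all tested genes were 6.29% higher and 10.3% lower. Bach2, among the 11 lower, had an irradiated mean under 1 FPKM and passed the filter through the control libraries. Spib, an ETS factor of B cells and plasmacytoid dendritic cells, stood at 2.81, 3.41 and 2.03 FPKM in irradiated and at 17.8, 16.5 and 16.1 FPKM in control replicates, and its log2 change was -2.26 ± 0.14. Irf8, a factor of B cells, dendritic cells and other myeloid cells (-0.65 ± 0.05), Sox4 (-0.98 ± 0.11), Ikzf3, which encodes Aiolos (-0.81 ± 0.10), Pou2af1, a co-activator at octamer sites (-0.86 ± 0.15), Tcf3, the E2A gene (-0.31 ± 0.07), and Foxo1 (-0.50 ± 0.12) were lower too, by the limma test. Spi1, the PU.1 gene of myeloid and B cells, was higher (0.26 ± 0.04), as was Erg (0.49 ± 0.11). Scaled to the T cell core genes, 9 of these factors were higher and 3 lower, where 82.9% of all tested genes were higher and 2.11% lower.

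Of 10 tested surface markers of lymphoid precursors, 2 were higher and 4 lower, with a median of -0.22, against 6.29% and 10.3% of all tested genes. Ly6d, which marks B-biased lymphoid progenitors, stood at 10.1, 7.57 and 8.09 FPKM in irradiated and at 40.1, 40.7 and 37.3 FPKM in control replicates (log2 change -2.08 ± 0.10). Flt3, a receptor of early progenitors, changed by -0.57 ± 0.12, and Cd93 by -0.44 ± 0.07. Il7r, the receptor for the main growth factor of mouse precursor B cells and also a T cell gene, was at -0.26 ± 0.10 and did not pass (limma adjusted p = 0.0918). Kit, a receptor of progenitors and mast cells, was at 16.7 ± 1.43 FPKM in irradiated and 16.8 ± 0.654 FPKM in control libraries. Bst1 (0.55 ± 0.11) and Cd24a (0.27 ± 0.05), both also transcribed in neutrophils, were higher. Scaled to the T cell core genes, 8 of the surface markers were higher and 1 lower, where 82.9% of all tested genes were higher and 2.11% lower.

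Later B lineage stages moved in both directions, where 6.29% of all tested genes were higher and 10.3% lower on the deposited values. Of 13 tested mature B cell genes, 0 were higher and 7 lower, with a median of -0.62. Ms4a1, the CD20 gene, stood at 0.504, 0.648 and 0.594 FPKM in irradiated and at 2.02, 2.52 and 2.62 FPKM in control replicates (log2 change -1.09 ± 0.16). Fcrla, an Fc receptor-like protein of B cells (-1.24 ± 0.13), Cd72, an inhibitory receptor (-0.88 ± 0.11), Tnfrsf13c, the BAFF receptor (-1.17 ± 0.18), and Cd22 (-0.99 ± 0.16) were lower too. Of the 7 lower genes, Ms4a1, Tnfrsf13c, Fcmr and Ciita had irradiated means under 1 FPKM and passed the filter through the control libraries. With a minimum of 5 FPKM, 2 of the list were lower, where 893 of all 7892 tested genes were. On the T cell core scale 2 of the mature B cell genes were higher and 4 lower, against 82.9% and 2.11% of all tested genes. Of 7 tested plasma cell genes, 5 were higher and 0 lower, with a median of 0.37. Jchain, which joins IgM and IgA units, stood at 420, 409 and 401 FPKM in irradiated and at 131, 134 and 121 FPKM in control replicates, and Derl3 (1.25 ± 0.14), Mzb1 (0.67 ± 0.14) and Xbp1 (0.35 ± 0.06) were higher too. Sdc1 (0.37 ± 0.17) and Prdm1 (-0.36 ± 0.16) did not pass, though all irradiated values of Prdm1 lay below its control values. No test compared the lists with one another.

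**Figure D4:**
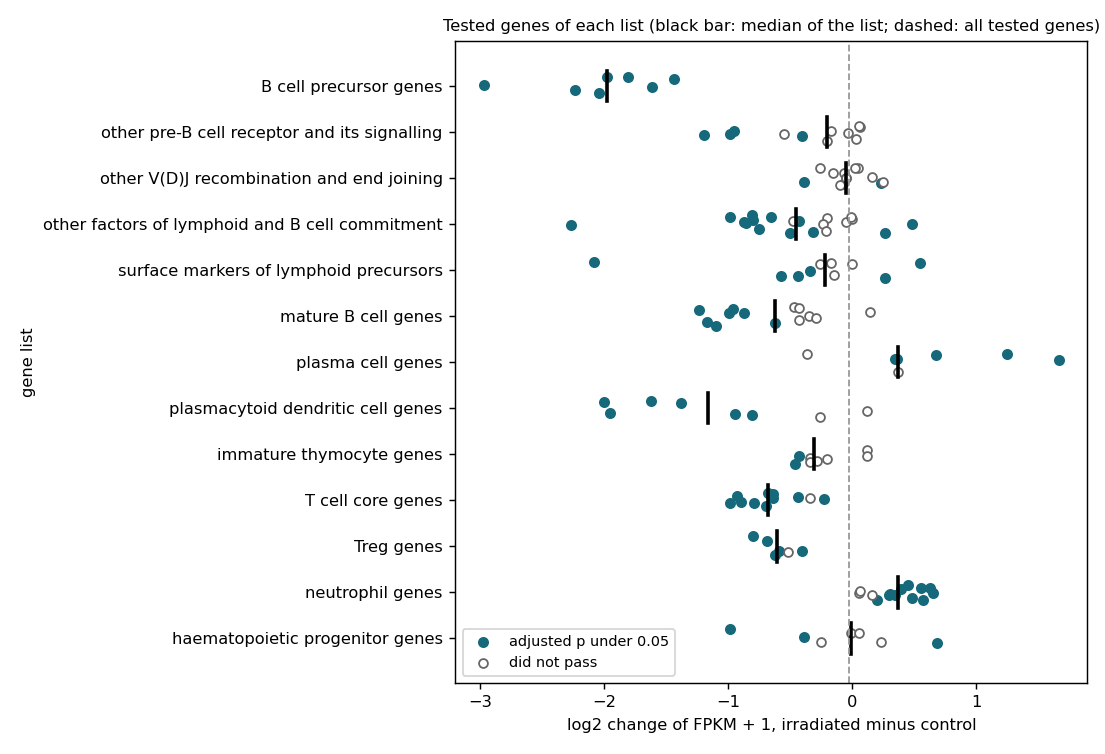
Log2 change of FPKM + 1, irradiated minus control, on the deposited values of each tested gene in 13 lists, filled where the limma adjusted p was under 0.05, with the median of each list as a black bar and that of all tested genes, -0.02, as a dashed line. The precursor genes have a median of -1.98, the mature B cell genes -0.62, the plasma cell genes 0.37 and the neutrophil genes 0.37.

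Markers of other cells that can hold these transcripts moved in the same libraries. Their counts on the deposited values stand beside 6.29% of all tested genes higher and 10.3% lower. Of 8 tested plasmacytoid dendritic cell genes, 0 were higher and 6 lower, with a median of -1.16, and their sum was 52.3 to 66.9 FPKM in irradiated and 136 to 146 FPKM in control libraries. Bst2 made up the larger part of that sum, at 35.8 ± 5.77 FPKM in irradiated and 94.0 ± 4.45 FPKM in control libraries. Of the 6, Klk1 and Ccr9 had irradiated means under 1 FPKM and passed the filter through the control libraries. With a minimum of 5 FPKM, 2 of the list were lower, where 893 of all 7892 tested genes were. Siglech, a marker of these cells in mice, stood at 3.55, 2.50 and 3.29 FPKM in irradiated and at 15.6, 14.2 and 14.5 FPKM in control replicates (log2 change -1.95 ± 0.13). Bst2 (-1.38 ± 0.10), Klk1 (-2.0 ± 0.36) and Ccr9 (-0.95 ± 0.18) were lower too. Scaled to the T cell core genes, 2 of the plasmacytoid genes were higher and 5 lower, and 3 of the thymocyte genes higher and 0 lower. On that scale 82.9% of all tested genes were higher and 2.11% lower. Of 8 tested immature thymocyte genes, 0 were higher and 2 lower, with a median of -0.31 and a summed level of 33.3 to 34.6 FPKM in irradiated and 37.1 to 44.6 FPKM in control libraries. The 2 calls, Cd1d1 and Tcf7, became 0 on leaving out any of the 6 libraries. The 14 neutrophil genes, of which 11 were higher and 0 lower, summed to 100901 to 103839 FPKM in irradiated and 69113 to 74266 FPKM in control libraries. Of 11 T cell core genes 0 were higher and 10 lower, of 6 Treg genes 0 were higher and 5 lower (3 lower without control replicate 3, and 3 without a filter), and of 7 tested haematopoietic progenitor genes 1 was higher and 2 lower. On the T cell core scale 0 Treg genes were higher or lower, and 5 progenitor genes were higher and 1 lower, against the same 82.9% and 2.11%. The part of these cells in the values of the precursor genes was not tested.

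The genes most like the tested precursor genes were of other pathways. Likeness was the root mean square difference, over the 6 libraries, between a gene's log2(FPKM + 1) centred on its control mean and the mean of the same over the 7 tested genes. The 5 nearest were Oasl2 (0.11), Irf7 (0.13), C1qc (0.13), Rsad2 (0.15) and C1qa (0.15). Oasl2, Irf7 and Rsad2 are interferon-induced, and C1qa and C1qc encode complement chains of macrophages. Oasl2 stood at 9.49, 12.1 and 10.5 FPKM in irradiated and at 43.6, 43.3 and 43.0 FPKM in control replicates. The measure reads mainly the distance between the 2 groups and gives no more than that.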

How the data were processed

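The authors deposited 1 FPKM value per gene and library, the unit being read from the values, since the file headers name only gene and sample. Per the labels' protocols, RNA came from sorted cells by a low-input column kit and the library kit was of a stranded mRNA type. The submitters' processing notes name the tools StringTie, HISAT2 and fastp and the builds mm10 and GRCm38. Their versions and settings, the annotation and the use of strand are not given there.

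The test was limma 3.58.1 (R 4.3.3; lmFit, eBayes with trend) on log2(FPKM + 1), for genes averaging 1 FPKM or more across libraries, two-sided, with Benjamini-Hochberg adjustment over all genes tested and a threshold of 0.05. The script was tested on simulated data. Single values were compared with exact permutation tests. Python 3.11.15 with pandas 2.3.3, numpy 2.4.6, scipy 1.17.1, Biopython 1.88 and matplotlib 3.10.9 made tables and plots. Transcript lengths are from GENCODE M21, and promoter windows from RefSeq GRCm38.p6.

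The 9 genes and the other lists were chosen with earlier results of these data known. The naming rule took the 9 genes, up to 4 genes per list with the lowest p, 7 fixed genes and the 5 most alike. For the T cell, Treg, thymocyte, neutrophil and progenitor lists mainly counts are given, and not all genes of the rule are named. Other genes of the lists and neighbouring genes were named after their values were seen. The labels do not say that replicates are separate animals, and p-values therefore cover only the spread among these libraries, possibly technical. The B lineage comparison used 2 genes, Cd79a and Cd79b, in place of the planned 3, because 1 gene is not reported here. A planned comparison of protein sequences was not run, and per-library read totals were estimated as described with the results.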

Additional observations from a re-analysis of the deposited data

How the results depend on the processing

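The fit was repeated without a filter, with a mean of at least 5 FPKM, a pseudocount of 0.1, median-of-ratios scaling, quantile normalization, scaling to the T cell core genes, no trend, a replicate block, and each library left out once. The 7 tested precursor genes stayed lower and past the threshold under every one of these in which they were tested, with a limma adjusted p of at most 0.0039. Their log2 changes ran there from -5.57 to -2.64 for Igll1 and from -1.65 to -0.85 for Blnk. With a minimum of 5 FPKM, 3 of the 9 genes could be tested and 3 were lower. Under that minimum 893 of all 7892 tested genes were lower and 634 higher. Over all genes, leaving out single libraries gave 414 to 684 higher and 722 to 978 lower, with both lowest counts without control replicate 2. Scaling to the T cell core genes gave 8840 higher and 225 lower, since the median moved to 0.59. With the replicate number as a block, 558 genes were higher and 948 lower, and 7 precursor genes were lower. Same-numbered libraries did not deviate together (r = 0.011, -0.042 and -0.023), and 0 of 3 irradiated libraries correlated best with the control of its own number.

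For Rag2 and Ebf1, both under 1 FPKM on average, the pseudocount set the sign of comparisons with other genes. Relative to the T cell core genes, Rag2 was at 0.19 with a pseudocount of 1, at -0.75 with 0.1, at -0.76 as a plain ratio and at -0.0093 without control replicate 2, and leaving out single libraries gave -0.0093 to 0.37. Ebf1 was at 0.38, at -0.50 with 0.1 and at -1.25 as a plain ratio. Relative to Cd79a and Cd79b, Rag2 was at 0.50, at -0.43 with 0.1 and at -0.47 as a plain ratio, and Ebf1 was at 0.69, at -0.18 with 0.1 and at -0.96 as a plain ratio. In Vpreb3, whose coding transcript length was the shortest used among the 9 genes, 3 estimated fragments correspond to 0.230 to 0.292 FPKM. Lower values in such genes cannot be ordered. By the estimated fragment totals, which were not checked against read counts, the irradiated libraries were the shallower ones.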
